A study of Homo sapiens with 6 samples.

Results

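Retinoid handling was described here through 10 genes of vitamin A metabolism and signalling: RDH5, RDH10, RDH11, RDH13 and DHRS3 among the enzymes, CRABP2 as the binding protein, and RARA, RARG, RXRA and RXRB among the nuclear receptors. They were taken by symbol from a table of 63563 genes, in which 15 entries carry one of these symbols, because RXRB has 6 entries. The set was put together around RDH5 and CRABP2 with their levels in these libraries already known, so the differences of the 10 genes between the groups are given as a description. How many of them and of their transcripts passed limma's threshold is counted beside the same count over all features, and supports nothing. The cells were RKO, a human colorectal cancer line. Both groups carried the plasmid backbone pCDNA3.1 under stable selection: the control group, EV, carried the empty vector on the label genotype WT, and the experimental group, OVER43, carried the cDNA of Cx43, the gap junction protein encoded by GJA1. Each group had 3 libraries of poly(A) RNA. The sources used here do not say whether each population was 1 clone or a pool, or whether the libraries came from separate cultures, so the spread between libraries may be technical.

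Vitamin A enters cells as retinol and is oxidised reversibly to retinal by retinol dehydrogenases, the RDH and DHRS enzymes. Aldehyde dehydrogenases of the ALDH1A family then oxidise retinal irreversibly to retinoic acid. CRABP2 carries retinoic acid to the nucleus, where heterodimers of a retinoic acid receptor (RAR) and a retinoid X receptor (RXR) bind DNA at repeated core motifs and switch target genes, while FABP5 can carry the acid to another nuclear receptor, PPARD, and CYP26 enzymes break it down. In the intestine the pathway is known for roles in epithelial differentiation and in imprinting lymphocytes.

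Levels are in FPKM, the fragments per kilobase of transcript per M mapped fragments, as the authors estimated them, and changes are given as the mean of log2(FPKM + 1) in OVER43 minus that in EV, called the log2 fold change, a scale that shrinks the changes of weak genes. GJA1 averaged 0.348 ± 0.0469 FPKM in EV and 24.7 ± 1.44 FPKM in OVER43 (SD, n = 3), so every library matched its group label. The libraries held an estimated 36.1 to 44.3 M fragments. EV library 2 stood apart from the others on the second principal component of all tested genes, which held 11.1% of the variance, at 17.22 against -9.00 to 3.99. Of 13 colon epithelial markers 4 reached a mean of 1 FPKM (EPCAM, KRT8, KRT18 and CDX2), and the differentiation marker KRT20 was listed at 0 in all libraries. No fibroblast marker of 8 and no endothelial marker of 5 reached that level. Of 8 leukocyte markers only CD68 did, with PTPRC and CD3E at 0. Of the 12205 genes with at least 1 FPKM in 3 of the 6 libraries, limma called 3462 higher in OVER43, which is 28.4% of them, and 2138 lower, which is 17.5%, at an adjusted p under 0.05. With the FPKM sums of all libraries made equal the split turned to 1867 higher and 3579 lower, with quantile scaling it was 2549 and 2446, and the median log2 fold change of all tested genes moved from 0.05 to -0.08.

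Of the 10 retinoid genes, 7 passed that expression filter. RDH5 passed it only through the EV libraries. Of those 7, limma called 4 lower in OVER43 (RDH5, CRABP2, RARG and RXRA) and 2 higher (RDH11 and RARA), beside 45.9% of all tested genes called in either direction, and nothing is read from that count, since the set was chosen on this contrast. The groups did not overlap for these 6 genes, as for 56.3% of all tested genes. The median log2 fold change of the 7 was -0.46. RDH5 and CRABP2 were also past 2-fold, as were 1.33% of all tested genes in the lower direction, and none was past 2-fold in the higher direction, beside 0.631% of all tested genes. Without EV library 2 the log2 fold changes of RDH5, CRABP2, RARG and RXRA were -2.41, -0.997, -0.65 and -0.46.

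**Figure D1:**
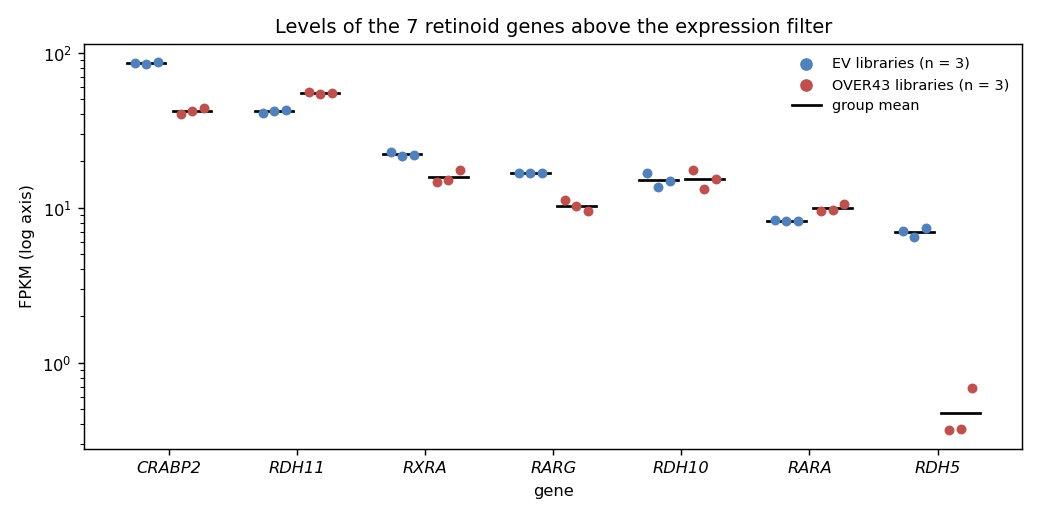
FPKM (log axis) of the 7 retinoid genes above the expression filter, ordered by their EV mean. Points are libraries, 3 per group, and black lines are group means. RDH5 shows the widest gap, from 6.98 to 0.474 FPKM on average, while the RDH10 points of both groups overlap.

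The upstream sequences of RDH5 and CRABP2, the genes with the largest decreases in the set, are shown because their start regions differ in base composition and in retinoid receptor core motifs. They are RefSeq sequences on GRCh38.p14, given 5′ to 3′ on the strand of the gene, from the 250 bases before the annotated start. The last 26 bases for RDH5 and the last 32 for CRABP2 were left out, because another annotated transcript already has an exon there. Capitals mark a core motif.
RDH5, chr12:55720143-55720366, plus strand: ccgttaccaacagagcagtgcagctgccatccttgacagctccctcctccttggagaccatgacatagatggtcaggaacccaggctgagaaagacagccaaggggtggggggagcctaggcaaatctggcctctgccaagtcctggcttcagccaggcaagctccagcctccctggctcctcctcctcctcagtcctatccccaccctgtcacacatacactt
CRABP2, chr1:156705817-156706034, minus strand: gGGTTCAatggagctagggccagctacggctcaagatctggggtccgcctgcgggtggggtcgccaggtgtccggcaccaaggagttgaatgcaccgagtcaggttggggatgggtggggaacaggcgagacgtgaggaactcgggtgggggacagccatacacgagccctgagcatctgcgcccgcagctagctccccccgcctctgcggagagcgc

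The core motif of these receptors was searched on both strands in 4 spellings: AGGTCA, then AGTTCA, then GGGTCA, and also GGTTCA. The 250 bases before the RDH5 start held none, and those before the CRABP2 start held 1, GGTTCA, beginning 249 bases before the start. At least 1 such core motif lay in 33.8% of all 35116 promoter windows of this length. Of the 10 genes, 9 had windows in the table, 16 in all, and none of the 16 held a direct repeat of these core motifs with a spacer of 1, 2 or 5 bases, spacers found in 0.0968%, 0.0313% and 0.0740% of all windows. The RDH5 window held 2 CpG dinucleotides and the CRABP2 window 18, beside a median of 11 over all windows. These are descriptions of the letters in a short window, and receptor binding was not measured.

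RDH5 (ENSG00000135437.5) encodes the 11-cis retinol dehydrogenase known from the visual cycle of the retinal pigment epithelium. The deposited tables place it in a bundle of 5 overlapping genes at chr12:56075330-56118489 of hg19. Its level was 7.09, 6.49 and 7.35 FPKM in the EV libraries and 0.366, 0.372 and 0.683 FPKM in the OVER43 libraries. Every OVER43 library lay below every EV library. The means were 6.98 ± 0.443 FPKM in EV and 0.474 ± 0.181 FPKM in OVER43 (SD, n = 3), 14.7-fold lower, for a log2 fold change of -2.44 (SE 0.118). This was the 15th lowest log2 fold change of the 12205 tested genes. Without the entry spanning the whole gene, RDH5 held an estimated 288, 238 and 291 fragments in EV and 15, 13 and 27 in OVER43. The OVER43 level thus rests on few reads.

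The decrease ran through the entries of RDH5 in the transcript table. Its main protein-coding transcript, ENST00000257895.5, stood at 2.52, 4.14 and 3.69 FPKM in EV and was listed at 0 in all 3 OVER43 libraries. A second protein-coding transcript, ENST00000547072.1, did not separate the groups, at 1.66, 0 and 0.144 FPKM in EV and 0.269, 0.206 and 0.319 FPKM in OVER43. The entry that spans the whole gene with its introns, which can hold unspliced RNA, stood at 1.08, 0.965 and 0.876 FPKM in EV and 0.0304, 0.0848 and 0 FPKM in OVER43. The sum of the other RDH5 entries, some of them annotated with a retained intron, and the whole-gene entry were thus both lower in every OVER43 library. A readthrough gene, BLOC1S1-RDH5, shares exons with RDH5, and reads could be split between the pair either way. It stood at 1.55 ± 0.805 FPKM in EV and 0.557 ± 0.174 FPKM in OVER43 and was below the filter. Summed with RDH5, the pair stood at 8.53 ± 0.958 and 1.03 ± 0.355 FPKM, 8.28-fold lower in OVER43.

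**Figure D2:**
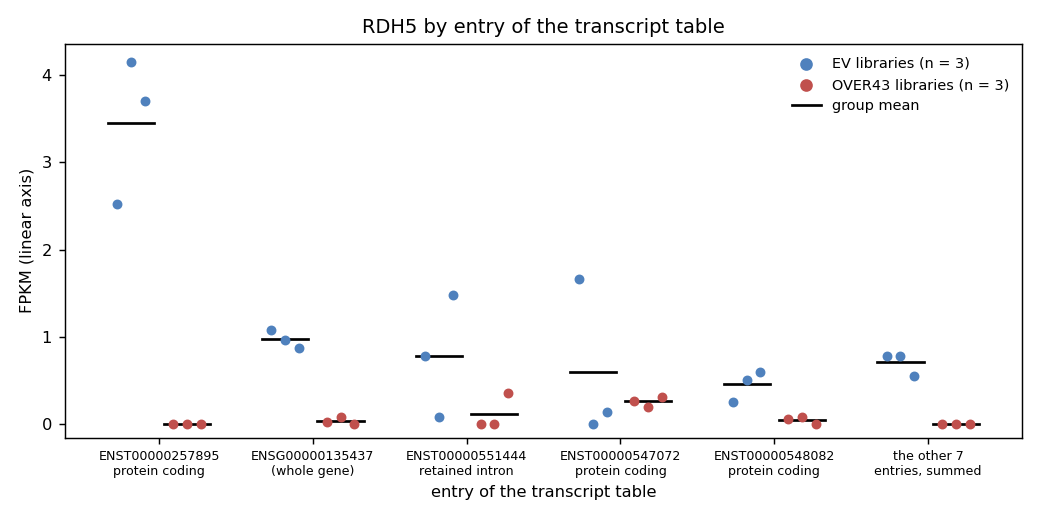
FPKM (linear axis) of the entries of RDH5 in the transcript table, with the smaller entries summed. Points are libraries, 3 per group, and black lines are group means. ENST00000257895 lies at 0 in all OVER43 libraries, and the whole-gene entry lies below 0.1 FPKM in them.

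The genes next to RDH5 were set beside it. METTL7B, which encodes a methyltransferase-like protein in the same bundle, stood at 13.9 ± 0.342 FPKM in the OVER43 libraries and 63.9 ± 2.85 FPKM in EV (limma adjusted p = 8.33e-08). The integrin subunit gene ITGA7 was lower too, at 6.79 ± 0.0784 against 13.0 ± 0.538 FPKM (limma adjusted p = 3.32e-05). BLOC1S1, a lysosome biogenesis gene and the partner in the readthrough, was called higher at 58.3 ± 3.14 against 52.0 ± 2.84 FPKM (limma adjusted p = 0.0419), although its groups overlapped. On the other side, the tetraspanin gene CD63 (594 ± 13.3 against 778 ± 19.6 FPKM), its antisense gene CD63-AS1 (1.17 ± 0.270 against 2.09 ± 0.0903 FPKM) and the growth factor gene GDF11 (10.5 ± 0.879 against 15.2 ± 1.10 FPKM) were called lower. The strand of the counting is not given, so reads of an antisense pair cannot be told apart. Of the 20 nearest tested genes, 10 on each side, 15 were called lower and 2 higher, with a median log2 fold change of -0.33, and the log2 fold change of RDH5 lay below that of all 20.

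**Figure D3:**
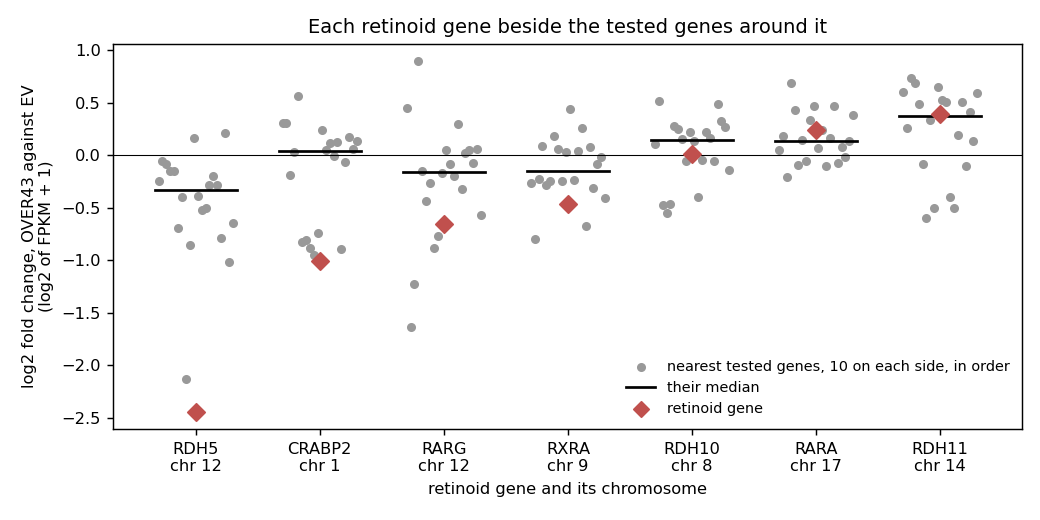
Log2 fold change (log2 of FPKM + 1, OVER43 against EV) of each tested retinoid gene (diamond) and of the 20 nearest tested genes on its chromosome (grey points, 10 on each side, in order), with their median (black line). RDH5 and CRABP2 lie below all of their 20 neighbours, while RDH11 lies near the middle of its own.

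RDH10, RDH11, RDH13 and DHRS3 gave the other enzymes of the set. RDH10 (ENSG00000121039.5), which oxidises all-trans retinol in the first step towards retinoic acid, stood at 16.9, 13.7 and 14.9 FPKM in EV and 17.6, 13.3 and 15.2 FPKM in OVER43. Its groups overlapped, with means of 15.1 ± 1.60 and 15.4 ± 2.13 FPKM (SD, n = 3) and a log2 fold change of 0.02 (SE 0.108), whose sign changed under all 3 other scalings. Its main transcript, ENST00000240285.5, stood at 11.9 FPKM in both groups.

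RDH11 (ENSG00000072042.8, in a bundle at chr14:68086515-68162531) is an enzyme of the endoplasmic reticulum that reduces retinal. It stood at 40.9, 41.8 and 42.8 FPKM in EV and 55.8, 54.2 and 55.4 FPKM in OVER43. All OVER43 libraries lay above all EV libraries, 1.32-fold on the means of 55.1 ± 0.844 and 41.8 ± 0.947 FPKM, with a log2 fold change of 0.39 (SE 0.0385). ENST00000381346.4 carried 80.4% of the gene level in OVER43 and 79.7% in EV and stood at 44.4 ± 1.78 and 33.4 ± 2.12 FPKM. The whole-gene entry did not move with it, at 0.482 ± 0.0682 and 0.471 ± 0.0225 FPKM with overlapping groups. Around RDH11 the median log2 fold change of 20 tested genes was 0.38, with 13 called higher, and 10 of them lay above RDH11 and 10 below. The difference of RDH11 was thus of the size of the median around it.

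DHRS3, a retinal reductase that opposes RDH10, stood at 0.181, 0.303 and 0.0139 FPKM in EV and 0.0349, 0.108 and 0.000432 FPKM in OVER43. Its groups overlapped below the filter. RDH13, a mitochondrial member of the family, was listed at 0 in all libraries but 1, which held 0.00067 FPKM. An exact 0 in these tables can be a missing estimate, so RDH13 is only said to be listed at 0. Of the 20 protein-coding genes nearest to RDH13, 6 had a mean of at least 1 FPKM, and of those nearest to RDH11, 17 did, counts chosen after the values were seen.

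CRABP2 (ENSG00000143320.4), the carrier of retinoic acid to its receptors, lies alone in its locus at chr1:156669398-156675608. It stood at 85.5, 84.5 and 86.7 FPKM in EV and 40.4, 42.2 and 43.8 FPKM in OVER43. The groups were far apart relative to their spread, at 85.6 ± 1.07 and 42.1 ± 1.73 FPKM (SD, n = 3). The ratio was 2.03-fold, with a log2 fold change of -1.01 (SE 0.0412), the 165th lowest of all tested genes. In EV it was the most abundant of the 10 genes in FPKM, and in OVER43 it ranked below RDH11.

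A single transcript carried CRABP2. ENST00000368222.3 held 96.9% of the gene level in OVER43 and 96.5% in EV, and stood at 40.8 ± 0.996 and 82.6 ± 0.881 FPKM. The whole-gene entry was lower as well, at 0.0703, 0.0836 and 0.0483 FPKM in the OVER43 libraries and 0.147, 0.106 and 0.104 FPKM in EV, with no overlap at this very low level. The decrease of CRABP2 was therefore present in both kinds of entry.

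The genes on either side of CRABP2 differed. The tested genes before it by position, NES, which encodes the intermediate filament protein nestin (7.44 ± 0.146 against 13.1 ± 0.732 FPKM), BCAN-AS2 (5.40 ± 0.489 against 11.5 ± 3.08 FPKM) and ENSG00000272405 (6.42 ± 0.558 against 12.7 ± 0.623 FPKM), were all called lower in OVER43 by limma. Those after it were ISG20L2, an exonuclease gene called higher at 41.5 ± 1.35 against 35.1 ± 3.11 FPKM, and METTL25B and MRPL24, which were not called. Around CRABP2 the median log2 fold change of the 20 nearest tested genes was 0.04, with 5 called higher and 6 lower, and all 20 lay above CRABP2.

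Among the receptors, RARA (ENSG00000131759.13, bundle chr17:38465444-38513094) was higher and RARG and RXRA were lower. RARA stood at 8.34, 8.21 and 8.18 FPKM in EV and 9.56, 9.69 and 10.5 FPKM in OVER43. The groups did not overlap, but the difference was small: 9.93 ± 0.532 against 8.24 ± 0.0869 FPKM, 1.20-fold, a log2 fold change of 0.24 (SE 0.0654). The log2 fold change of RARA was 0.11 when the libraries were scaled to equal FPKM sums and 0.20 without OVER43 library 2. Its call was lost in both settings (limma adjusted p = 0.188 and 0.0535). Its transcript ENST00000254066.5 stood at 4.13 ± 0.345 against 3.10 ± 0.290 FPKM but was not called (limma adjusted p = 0.116). ENST00000394089.2 and ENST00000425707.3 overlapped between the groups and were not called either. The whole-gene entry of RARA was not higher, at 0.0749 ± 0.00583 against 0.0833 ± 0.00421 FPKM with overlapping groups. The 20 tested genes nearest to RARA had a median log2 fold change of 0.14. Of them 7 were called higher and 1 lower, and 7 lay above RARA.

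RARG (ENSG00000172819.12), alone at chr12:53604354-53626764, stood at 16.8, 16.6 and 16.9 FPKM in EV and 11.2, 10.3 and 9.53 FPKM in OVER43. All OVER43 libraries were below all EV libraries. The means were 10.3 ± 0.840 and 16.8 ± 0.114 FPKM (SD, n = 3), 1.62-fold lower, with a log2 fold change of -0.65 (SE 0.0677). Of its 4 tested transcripts limma called 1 lower, beside 4.82% of all transcripts tested, and nothing is read from that count. The called transcript was ENST00000425354.2 at 4.74 ± 0.595 against 6.97 ± 0.683 FPKM (limma adjusted p = 0.0472). ENST00000338561.5, at 2.49 ± 0.465 against 3.68 ± 0.341 FPKM, ENST00000394426.1 and ENST00000543726.1 had lower means but were not called (limma adjusted p = 0.103, 0.0632 and 0.370). The whole-gene entry stood at 0.107 ± 0.0214 against 0.177 ± 0.0210 FPKM, lower in every OVER43 library. The median log2 fold change of the 20 tested genes around RARG was -0.16, with 1 called higher and 9 lower, and 4 of them lay below RARG.

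RXRA (ENSG00000186350.8, bundle chr9:137208944-137332431), the shared partner of both receptors, stood at 22.8, 21.4 and 22.0 FPKM in EV and 14.8, 15.1 and 17.5 FPKM in OVER43. Again the groups did not overlap, with means of 15.8 ± 1.51 and 22.1 ± 0.669 FPKM, 1.40-fold lower, and a log2 fold change of -0.46 (SE 0.0716). Its 2 main transcripts were lower to a like extent, ENST00000481739.1 at 8.94 ± 1.27 against 12.4 ± 0.568 FPKM and ENST00000356384.4 at 6.76 ± 0.283 against 9.61 ± 0.383 FPKM. ENST00000481739.1, annotated as protein-coding, held 56.5% of the gene level in OVER43 and 56.0% in EV. ENST00000356384.4 is annotated as a processed transcript, not as protein-coding. The whole-gene entry was at 0.0239 ± 0.00577 against 0.0361 ± 0.00593 FPKM. Around RXRA the median log2 fold change of the 20 nearest tested genes was -0.15, with 1 called higher and 9 lower, and 2 of them lay below RXRA.

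RXRB was listed at 0 in all libraries at its position on chromosome 6, and its 5 copies on alternate haplotype sequences held at most 0.0269 FPKM. Reads of near-identical copies can be split or lost in the counting, so no level is given for the gene. Genes beside it read the same way: SLC39A7 and RING1 were listed at 0 in all libraries, and RPS18, a ribosomal protein gene that all cells use, stood at 0.315, 0.318 and 0.460 FPKM in the OVER43 libraries and 0.403, 0.129 and 0 FPKM in EV. Of the 20 protein-coding genes nearest to RXRB, 1 had a mean of at least 1 FPKM and 12 were listed at 0 throughout. These neighbours were chosen after their values were seen.

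By level in EV the order was CRABP2, RDH11, RXRA, RARG, RDH10, RARA and RDH5, and in OVER43 it was RDH11, CRABP2, RXRA, RDH10, RARG, RARA and RDH5. Libraries of RARG and RDH10 overlapped in EV, and in OVER43 those of RXRA and RDH10, and of RARG and RARA, overlapped, so these neighbours in the order do not differ beyond their spread. RARG over RARA was 2.03 ± 0.0264 in EV and 1.05 ± 0.135 in OVER43, a ratio chosen after the values were seen. In EV RARG was the more abundant RAR in FPKM, and in OVER43 the pair stood at like levels. Of 18 tested transcripts of the 10 genes, limma called 5 lower and 1 higher, beside 4.82% lower and 9.77% higher of all 31220 transcripts tested, and nothing is read from that count either. The split over all transcripts, 3049 higher and 1504 lower, was 2218 and 1849 with TMM scaling, 1628 and 1965 with quantile scaling and 1538 and 2374 with equal FPKM sums.

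The other genes of the pathway gave 4 lists with 96 genes, of which 51 were tested and 43 stayed under 1 FPKM in every library. limma called 14 of the 51 higher in OVER43 (27.5%) and 9 lower (17.6%), shares close to the 28.4% and 17.5% of all tested genes. Their median log2 fold change was 0.09, beside 0.05 for all tested genes. With equal FPKM sums 9 were called higher and 13 lower, and without EV library 1 the count called lower was 5.

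Among 9 tested enzymes 3 were called higher and 2 lower. DHRS4, a peroxisomal retinal reductase, stood at 12.8 ± 0.628 FPKM in the OVER43 libraries and 7.05 ± 0.626 FPKM in EV (SD, n = 3; limma adjusted p = 0.000138). DHRS4 has near-identical copies beside it, so its value is uncertain. The lipase gene PNPLA4 (11.0 ± 0.851 against 8.29 ± 0.505 FPKM) and the alcohol dehydrogenase gene ADH5 (55.3 ± 1.63 against 46.3 ± 3.14 FPKM) were also called higher. The call of ADH5 (limma adjusted p = 0.00651) was lost with equal FPKM sums, quantile scaling or no filter on low values, at limma adjusted p of 0.107, 0.0968 and 0.0592. CYP26B1, which degrades retinoic acid, was lower at 2.86 ± 0.167 against 3.91 ± 0.311 FPKM (limma adjusted p = 0.0162), a call lost without EV library 0 and with quantile scaling (limma adjusted p = 0.0585 in both). HSD17B6, a steroid and retinol dehydrogenase, stood at 1.11 ± 0.478 against 2.29 ± 0.615 FPKM with overlapping groups. Its call (limma adjusted p = 0.0315) was lost without EV library 1 or 2 or OVER43 library 0 or 1, at limma adjusted p from 0.0660 to 0.0986, and with quantile scaling (0.0573) or no filter on low values (0.188). RDH14, another retinol dehydrogenase, was not called at 15.2 ± 0.964 against 14.3 ± 1.03 FPKM. Of the enzymes of the irreversible step, ALDH1A1 and ALDH1A2 were below 0.002 FPKM on average, and ALDH1A3 stood at 0.496 ± 0.172 FPKM in the OVER43 libraries and 0.818 ± 0.544 FPKM in EV, below the filter with overlapping groups. CYP26A1 was below 0.1 FPKM, and DHRS9 was listed at 0.

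Of 13 binding and uptake genes 3 were tested, FABP5 and SCARB1, which were called higher, and RBP5, which was called lower. FABP5, the other carrier of retinoic acid, stood at 265 ± 17.5 FPKM in the OVER43 libraries and 186 ± 6.38 FPKM in EV (SD, n = 3; limma adjusted p = 0.000128). FABP5 has processed pseudogenes that can share its reads. The scavenger receptor gene SCARB1, which takes up carotenoids and lipoproteins, was higher at 59.3 ± 2.37 against 37.6 ± 1.69 FPKM (limma adjusted p = 4.04e-05), and the cellular retinol binding protein gene RBP5 stood at 0.665 ± 0.0901 against 1.33 ± 0.0751 FPKM. RBP5 passed the filter only through the EV libraries, where it is high, so its call supports nothing. CRABP2 over FABP5 was 0.460 ± 0.0215 in EV and 0.159 ± 0.00516 in OVER43, again a ratio chosen after the values were seen. The retinol uptake gene STRA6, the binding protein gene CRABP1 and the plasma carrier gene RBP4 were below the filter, with RBP4 listed at 0.

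Among 25 tested receptors and coregulators 7 were called higher and 4 lower. The COUP-TF receptor genes were the highest: NR2F1 at 17.3 ± 3.23 against 10.2 ± 0.619 FPKM, NR2F2 at 16.7 ± 1.28 against 10.2 ± 0.921 FPKM and NR2F6 at 43.2 ± 1.27 against 28.3 ± 7.87 FPKM (limma adjusted p = 0.00216, 0.000425 and 0.0216). The call of NR2F6 was lost without EV library 1 or any 1 OVER43 library, at limma adjusted p from 0.0595 to 0.0766, and with equal FPKM sums (0.0629) or no filter on low values (0.140). NRIP1, a corepressor that is itself induced by retinoic acid, was lower at 2.25 ± 0.0849 against 5.19 ± 0.231 FPKM (limma adjusted p = 8.4e-05). The liver X receptor gene NR1H3 (1.82 ± 0.242 against 2.58 ± 0.229 FPKM, limma adjusted p = 0.0354) and the vitamin D receptor gene VDR (2.99 ± 0.440 against 3.93 ± 0.156 FPKM, limma adjusted p = 0.0393) were called lower by a narrow margin. NR1H3 lost its call without EV library 1 or 2 or OVER43 library 0 or 2 (limma adjusted p from 0.0630 to 0.115), and VDR lost it without any 1 library except OVER43 library 1 (limma adjusted p from 0.0648 to 0.113). Both calls were also lost with quantile scaling (limma adjusted p = 0.103 and 0.131) and with no filter on low values (0.0912 and 0.121), and that of VDR with the replicate number as a block (0.0594). The corepressor gene NCOR1 was not called, at 14.0 ± 1.40 against 12.2 ± 1.43 FPKM. RARB and RXRG were below 0.1 FPKM.

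Among 16 tested retinoic acid target genes 2 were called higher and 4 lower, with CYP26B1 and NRIP1 counted again. BHLHE40, a transcriptional repressor of the clock, was the lowest of the list at 28.6 ± 3.46 against 81.5 ± 0.963 FPKM (SD, n = 3; limma adjusted p = 7.1e-06). The adhesion gene ICAM1 was lower at 15.8 ± 0.428 against 21.6 ± 0.430 FPKM, and the pioneer factor gene FOXA1 was higher at 5.89 ± 0.385 against 4.41 ± 0.210 FPKM. TGM2, a transglutaminase gene induced by retinoic acid in many cells, stood at 1.45 ± 0.193 against 0.858 ± 0.256 FPKM. TGM2 met the filter through the OVER43 libraries, where it is high, so its call supports nothing. Its call (limma adjusted p = 0.0485) was lost without any 1 library except EV library 2, at limma adjusted p from 0.0678 to 0.140, and with TMM scaling, equal FPKM sums, no filter on low values or a pseudocount of 0.1, at 0.0560 to 0.145. The other 10 tested targets were not called.

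**Figure D4:**
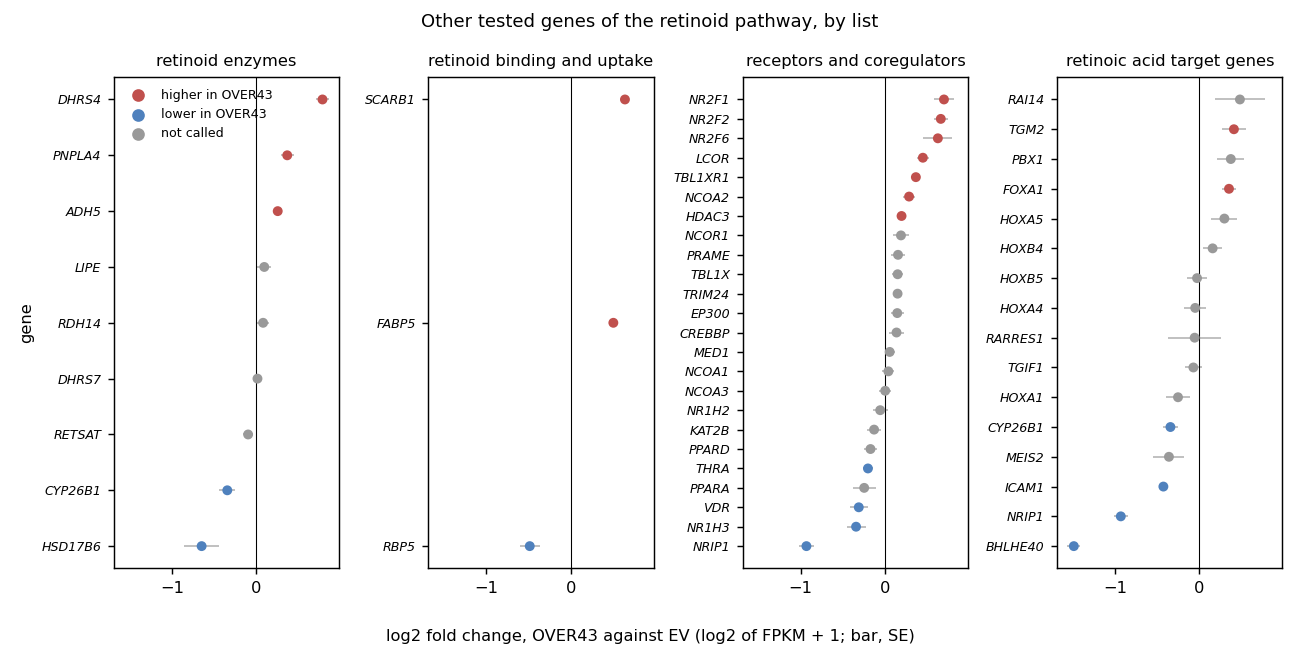
Log2 fold change (log2 of FPKM + 1, OVER43 against EV) with its SE for the tested genes of each pathway list that are reported here. Red points were called higher, blue points lower and grey points not called by limma at an adjusted p under 0.05. Most receptors and coregulators lie near 0, and BHLHE40 is the lowest point at -1.49.

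RDH5 is known from the retinal pigment epithelium, so markers of that tissue were read in all libraries. Of 7 markers, 2 reached a mean of 1 FPKM, PMEL and MITF, and RPE65 and TYR were at 0. PMEL stood at 0.811 ± 0.390 FPKM in the OVER43 libraries and 1.80 ± 0.484 FPKM in EV (limma adjusted p = 0.0293), and MITF, a pigment cell transcription factor gene, at 0.988 ± 0.161 against 2.33 ± 0.276 FPKM (limma adjusted p = 0.00155). Both genes met the filter through the EV libraries, where they are high, so their calls support nothing. The summed level of the 7 markers was 1.26 to 2.39 FPKM in OVER43 and 3.98 to 4.45 FPKM in EV, carried mainly by PMEL and MITF. The markers did not move together. RLBP1 stood at 0.111 against 0.0105 FPKM, LRAT at 0.0142 against 0.0143 FPKM and BEST1 at 0.00364 against 0.00805 FPKM, all with overlapping groups. The part of these markers in the RDH5 result was not tested, and in bulk RNA fewer cells that express a gene and less RNA per cell cannot be told apart. PMEL is also 1 of the 20 tested genes around RDH5.

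The genes whose profiles over the 6 libraries lay nearest to RDH5, by root mean square distance of centred log2(FPKM + 1), were VAMP8 (0.0777), RGS4 (0.132), SIRPA (0.142), CCDC190 (0.153) and GNAL (0.160). VAMP8, a vesicle SNARE gene, stood at 0.237, 0.115 and 0.460 FPKM in the OVER43 libraries and 6.27, 5.61 and 7.13 FPKM in EV. RGS4, a regulator of G protein signalling, stood at 83.0 ± 7.76 and 537 ± 6.79 FPKM, 6.47-fold lower in OVER43 where RDH5 was 14.7-fold lower, and the pair lie near each other only on the log2(FPKM + 1) scale. For CRABP2 the nearest were ST6GALNAC4 (0.0393), HMGN5 (0.0434), TNFRSF21 (0.0468), ACAT1 (0.0482) and UNC5B (0.0534). ST6GALNAC4, a sialyltransferase gene, stood at 202 ± 10.6 FPKM in the OVER43 libraries and 406 ± 12.1 FPKM in EV. These genes were picked for likeness, so their own differences are not tested.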

How the data were processed

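Poly(A) RNA of 6 RKO libraries was sequenced, and the authors deposited 2 tables, of 63563 genes and 251748 transcript entries, made with Cuffdiff per the submitters' processing notes. Per the file headers, the deposited tables hold FPKM per library and the authors' log2 fold change, test statistic (a score), p-values and q-values, and only the FPKM were used for results here. An aligner and a strand setting are not named in the labels or headers (not given in the sources used here). Loci are given as hg19 positions, which they are, although hg38 is the build in the submitters' processing notes. Promoter windows are RefSeq's on GRCh38.p14, and gene names and transcript lengths come from GENCODE 29. The 52414 entries spanning a whole gene were read as entries of their own, and 19 genes without an estimate were left out.

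Columns are numbered 0 to 2 and the labels' replicates from 1, so columns were matched to groups only. Genes with at least 1 FPKM in 3 of 6 libraries were tested with limma 3.58.1 in R 4.3.3 with its robust and trend settings, on log2(FPKM + 1) and in a two-sided model holding the group alone, with Benjamini-Hochberg adjustment over all tested genes and a threshold of 0.05. Transcripts were tested likewise, and the code was checked on simulated data with 200 features changed. There, log2 changes of 1 were called for 94% of changed genes and 31% of changed transcripts. For log2 changes of 0.5 the shares were 73% and 6%. A transcript that was not called may therefore still differ. Leaving out a library kept the set of tested genes. Fragments were estimated as FPKM times length times a depth read from the smallest FPKM steps of transcripts of at least 1000 bases, looked for between 30 and 60 M (limits set after the steps were seen), without correction for effective length.

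The 10 genes and the lists were chosen with earlier results of these data known. Named were the 10 genes, GJA1, the called genes with the 3 largest changes per list and direction, 16 pathway genes whatever their result, the 3 tested neighbours on each side of RDH5 and CRABP2, and the 5 genes nearest to each in profile. A few genes that the rule or the lists hold enter the counts but are not reported here. The promoter search, the sums over the readthrough pair, the ratios between genes and the counts around RXRB, RDH13 and RDH11 were chosen after values were seen. The alternatives were other scalings, filters and a pseudocount of 0.1, the replicate number as a block, and leaving out each library.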

Additional observations from a re-analysis of the deposited data

How the results depend on the processing

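Of 98 log2 fold changes of the 7 tested retinoid genes under the alternatives, 5 changed sign, all of RDH10, and 2 lost the call, both of RARA. RDH5 ranged from -3.67 to -2.29, CRABP2 from -1.16 to -0.98, RARG from -0.78 to -0.60, RXRA from -0.60 to -0.42, RDH11 from 0.25 to 0.41 and RARA from 0.11 to 0.27. RDH10 changed sign to -0.035 with TMM scaling, -0.12 with equal FPKM sums, -0.037 with quantile scaling, -0.050 without EV library 1 and -0.079 without OVER43 library 0. RDH14 turned to -0.054 with equal FPKM sums. Of 267 values of the named pathway genes 226 kept direction and call, 40 lost the call and 1 reversed. The calls of the genes around each retinoid gene were read on the FPKM as deposited only. Small ones, such as those of ISG20L2 and BLOC1S1, may depend on the scaling, which was not tested.

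With equal FPKM sums 1867 genes were called higher and 3579 lower, 9 pathway genes higher, and 1538 transcripts higher and 2374 lower. A minimum of 5 FPKM left 4 pathway genes called lower, because fewer genes were tested. Without a filter on low values 1134 transcripts were called higher and 762 lower, and with quantile scaling 1628 were called higher and 1965 lower, which turned the balance of 3049 higher to 1504 lower. Leaving out each library in turn gave 5 to 8 pathway genes called lower, 1655 to 2558 transcripts called higher and 759 to 1013 lower. Columns with the same number did not deviate together (r = 0.017, -0.091 and 0.029), so they share only a number. With the replicate number as a block 1380 transcripts were called higher and 565 lower. The cause of these changes was not tested. Depth limits RDH5 in OVER43, DHRS3 and most transcripts, and an entry at 0 may be a missing estimate.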
